A study of Mus musculus with 24 samples.

Results

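The 37 genes described here encode the enzymes of glycolysis, the transporters of glucose and lactate, the kinases that steer pyruvate, and the factors and targets of the response to low oxygen. They were taken as a list of names, with no threshold on any value, and they are 37 of the 55471 genes in the count tables. RNA-seq counts were followed in 3T3 mouse embryonic fibroblasts (MEFs), an immortalized fibroblast culture, of 4 genotypes. These were wild type (WT, Lkb1+/+), LKB1 knockout (Lkb1-/-), and 2 single-cell clones, A1 and A2, of LKB1/CRTC2 knockout MEFs that were made from Lkb1-/- cells by CRISPR-Cas9 guides to the first exon of Crtc2. Each genotype was left untreated or given IL-1β, an inflammatory cytokine, at 0.1 ng/mL for 6 hours, which gave 8 groups of 3 libraries and 24 libraries in all. WT and Lkb1-/- were each 1 cell line and each double knockout was 1 clone, so a difference between genotypes cannot be told apart from a difference between lines, and p-values measure the spread between libraries of a line.

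Glycolysis splits glucose into pyruvate, and cells either pass pyruvate to the mitochondria through pyruvate dehydrogenase or reduce it to lactate and export it. Hypoxia-inducible factors (HIFs) are transcription factors whose alpha subunits are hydroxylated by prolyl hydroxylases and then degraded while oxygen is present, and many glycolytic genes are HIF targets. LKB1 is a kinase that activates AMPK and the salt-inducible kinases, and the latter hold CRTC2, a coactivator of the transcription factor CREB, outside the nucleus. All values are mRNA levels, and no oxygen level, metabolite or protein was measured in these libraries.

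Each library had between 38842901 and 48594394 counts on genes. Levels are given as CPM, normalized counts after TMM scaling of library sizes, and a gene was called at a Benjamini-Hochberg FDR under 0.05 in edgeR's quasi-likelihood test over all 17522 genes that passed the filter on low counts. Of the 37 genes 36 passed, and Car9 did not. Stk11, which encodes LKB1, was at 86.0 ± 1.68 CPM (mean ± SD, n = 3) in untreated WT and at 17.3 ± 1.24, 21.4 ± 0.617 and 18.1 ± 0.758 CPM in untreated Lkb1-/-, A1 and A2 MEFs. Crtc2 was at 81.1 ± 1.80 CPM in untreated Lkb1-/- and at 42.9 ± 2.11 and 49.8 ± 0.864 CPM in A1 and A2, so reads on both targeted genes remained. Summed levels of 13 fibroblast markers lay between 5974 and 10754 CPM in every library. Those of 8 epithelial markers were between 0.199 and 0.782 CPM. Those of 6 leukocyte, 5 endothelial, 6 adipocyte and 6 skeletal muscle markers were at most 26.5 CPM. Among untreated libraries, endothelial markers summed to 0.553 to 0.835 CPM in WT and 2.57 to 3.01 CPM in Lkb1-/-, muscle markers to 1.75 to 3.22 and 0.340 to 0.580 CPM, and adipocyte markers to 12.6 to 12.9 CPM in Lkb1-/- and 18.7 to 22.0 CPM in A1, and their part in the results was not tested. In bulk libraries, fewer cells with an mRNA and less of it per cell cannot be told apart. Of the fibroblast markers, Col1a2 had a log2 fold change of -3.63 and Dcn one of 9.04 in untreated Lkb1-/- against WT MEFs, the 9 genes tested on chromosome Y had a median of 8.21, and the part of such line differences in the results below was not tested.

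Promoter windows of 300 bases, 250 before to 50 after the start site, were found in RefSeq (GRCm38.p6) for 34 of the 37 genes, 50 windows in all. Windows were searched on both strands for ACGTG and GCGTG, the letters at the core of the hypoxia response element, and for TGACGTCA, the full cAMP response element that CREB binds, which holds neither core. ACGTG was in 28 of the 50 windows against 19.6% of all 32851 windows, GCGTG in 27 against 32.4%, and at least 1 of the cores in 41 against 43.8%. TGACGTCA was in 1 window, that of Ldha, against 1.79% of all windows. A match shows only that the letters are present. Overlapping windows of a gene were each counted, and windows were not matched for base composition. The genes were also listed for their part in glycolysis and the HIF pathway. The parts before the start site and outside annotated exons are shown for 4 genes that recur in the results: Ldha, the only one with the cAMP response element, and Pgk1, Ankrd37 and Bnip3, well-known HIF targets. Capitals mark the 3 motifs on either strand.
Ldha, lactate dehydrogenase A, chr7:46845554-46845803, plus strand: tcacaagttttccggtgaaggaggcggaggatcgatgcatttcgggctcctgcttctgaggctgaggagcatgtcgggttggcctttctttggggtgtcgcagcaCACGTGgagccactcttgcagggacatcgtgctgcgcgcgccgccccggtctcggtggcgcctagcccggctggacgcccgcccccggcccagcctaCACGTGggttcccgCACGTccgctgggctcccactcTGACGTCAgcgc
Pgk1, phosphoglycerate kinase, chrX:106186850-106187099, plus strand: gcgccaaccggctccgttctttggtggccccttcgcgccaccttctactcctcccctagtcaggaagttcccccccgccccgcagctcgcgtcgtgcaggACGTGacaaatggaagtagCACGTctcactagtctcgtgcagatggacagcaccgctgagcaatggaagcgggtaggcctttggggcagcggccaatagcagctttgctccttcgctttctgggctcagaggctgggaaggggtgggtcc
Ankrd37, an ankyrin repeat protein and HIF target, chr8:45999868-46000100, minus strand: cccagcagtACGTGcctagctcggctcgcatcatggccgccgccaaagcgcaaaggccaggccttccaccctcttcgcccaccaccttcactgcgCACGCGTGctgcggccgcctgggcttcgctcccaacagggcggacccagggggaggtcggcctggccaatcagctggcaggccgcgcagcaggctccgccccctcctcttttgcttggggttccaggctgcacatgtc
Bnip3, a mitophagy receptor and HIF target, chr7:138909520-138909756, minus strand: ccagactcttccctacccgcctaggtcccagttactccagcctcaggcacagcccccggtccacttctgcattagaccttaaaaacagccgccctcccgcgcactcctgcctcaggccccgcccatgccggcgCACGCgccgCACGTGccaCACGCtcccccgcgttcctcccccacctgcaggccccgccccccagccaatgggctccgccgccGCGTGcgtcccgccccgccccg
The Ldha stretch holds 5 matches to ACGTG, counting the palindrome CACGTG on both strands, and the cAMP response element close to the start site. The Pgk1 stretch holds 2 matches to ACGTG and the Ankrd37 stretch 1, with 2 to GCGTG. The Bnip3 stretch holds 2 matches to ACGTG and 3 to GCGTG.

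Whether loss of LKB1 alone goes with other levels of these genes was read from untreated Lkb1-/- against untreated WT MEFs. Of the 36 genes tested 19 were higher, where 30.1% of all genes tested were called higher, and 5 were lower, where 25.8% were called lower. The median log2 fold change of the 36 genes was 0.43, against 0.04 over all genes. All 4 pyruvate dehydrogenase kinases and all 3 tested HIF targets outside metabolism were called higher, while Pkm, Aldoa and Gapdh, which had the highest levels per length in WT, were not called. Without WT replicate 1, which had the lowest level of many of these genes, 16 were higher and 5 lower, and without all 8 libraries numbered replicate 1, an alternative chosen after seeing the data, 21 were higher and 5 lower.

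**Figure D1:**
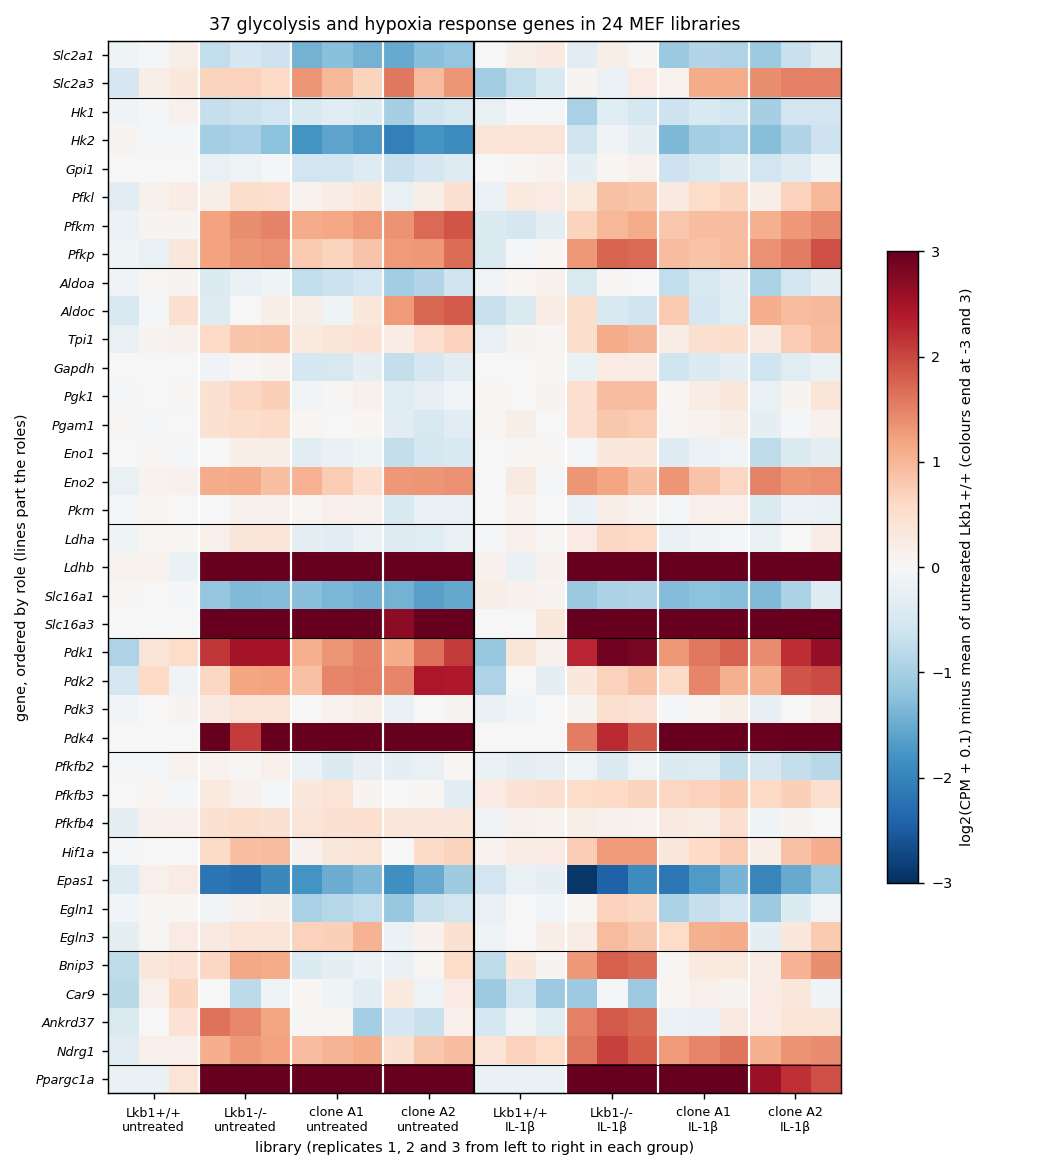
Each row is one of the 37 genes, ordered by role, and each column one of the 24 libraries. Colour gives log2(CPM + 0.1) minus the mean of the untreated Lkb1+/+ libraries, and Ldhb, Slc16a3, Pdk4 and Ppargc1a stand above that mean in all 18 libraries without LKB1.

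Lactate genes were among those that differed most. Ldhb, the lactate dehydrogenase subunit typical of heart that favors lactate use, had 2 counts over the 3 untreated WT libraries, and was at 5.89, 5.75 and 6.90 CPM in the untreated Lkb1-/- libraries. The ratio of the groups was 391 (95% counting interval 108 to 3231, edgeR FDR = 3.8e-14). Slc16a3, the lactate exporter MCT4, had no count in untreated WT libraries and was at 1.25, 1.51 and 1.71 CPM in Lkb1-/- libraries, at least 20.8-fold higher with 3 counts per library as the floor (edgeR FDR = 8.7e-10). The WT libraries did hold reads on the opposite strand over Slc16a3, and these were 100% of its stranded reads in untreated WT and 56.1% in untreated Lkb1-/- MEFs. Slc16a1, the widely expressed lactate transporter MCT1, moved the other way. Its levels were 316, 305 and 297 CPM in WT and 136, 123 and 123 CPM in Lkb1-/- libraries, which differed by -1.26 ± 0.14 on the log2 scale (± SE, as in all such values below, edgeR FDR = 1.1e-07), and the groups did not overlap. Ldha, the main subunit, was 636 ± 46.5 CPM in WT and 782 ± 66.5 CPM in Lkb1-/- MEFs (0.30 ± 0.11, edgeR FDR = 0.026). This small difference was not called without any 1 of WT replicates 1 and 3 and Lkb1-/- replicates 2 and 3 (log2 fold change 0.20 to 0.27, edgeR FDR 0.055 to 0.15), nor with unstranded counts.

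Pyruvate dehydrogenase kinases phosphorylate and switch off pyruvate dehydrogenase. Pdk4, the isoform induced by fasting, had no count in any of the 6 WT libraries and was at 0.860, 0.325 and 0.738 CPM in untreated Lkb1-/- libraries, at least 8.97-fold higher (edgeR FDR = 6.6e-07). Pdk1, a HIF target, was at 10.6, 26.4 and 29.9 CPM in WT and 90.0, 114 and 114 CPM in Lkb1-/- libraries. WT replicate 1 lay well below the other WT libraries, and the lowest Lkb1-/- library was above all of them (2.25 ± 0.37, edgeR FDR = 2.6e-05). Pdk2, a widely expressed isoform, rose by 0.99 ± 0.34 (edgeR FDR = 0.018), a call that was lost without any 1 of WT replicates 1 and 3 and Lkb1-/- replicates 2 and 3 (0.76 to 0.90, edgeR FDR 0.059 to 0.1). Pdk3, the most abundant of the 4 per length, rose by 0.36 ± 0.10 (edgeR FDR = 0.006), beside a median of 0.22 over the 531 genes tested on its chromosome, X, which also carries Pgk1.

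Among the upper steps, Slc2a1, the glucose transporter GLUT1, was lower in Lkb1-/- MEFs (-0.62 ± 0.14, edgeR FDR = 0.00088), and so were both hexokinases, which trap glucose as its phosphate. Hk2, the inducible hexokinase, was at 146, 134 and 135 CPM in WT and 68.3, 70.2 and 59.2 CPM in Lkb1-/- libraries (-1.07 ± 0.14, edgeR FDR = 8.9e-07). Hk1, the constitutive one, differed by -0.63 ± 0.14 on the log2 scale (edgeR FDR = 0.00046), and the 814 genes tested on its chromosome, 10, which also carries Stk11 and Pfkl, had a median of -0.44. Phosphofructokinase commits sugar to glycolysis. Its muscle form Pfkm rose from 21.7, 26.0 and 26.1 CPM in WT to 56.4, 64.6 and 68.7 CPM in Lkb1-/- libraries (1.36 ± 0.13, edgeR FDR = 1.5e-08), beside a median of 0.40 over the 706 genes tested on chromosome 15, which also carries Ndrg1. Its platelet form Pfkp rose by 1.29 ± 0.17 (edgeR FDR = 9.3e-07). Reads on the strand opposite Pfkp, where Pitrm1 overlaps its end, were 62.0% of its stranded reads in untreated WT and 38.7% in Lkb1-/- MEFs. The liver form Pfkl (0.39 ± 0.20) and Gpi1, glucose phosphate isomerase (-0.13 ± 0.11), were not called. Of the enzymes that make and remove fructose 2,6-bisphosphate, the activator of phosphofructokinase, Pfkfb4 rose by 0.47 ± 0.10 (edgeR FDR = 0.00044), and Pfkfb2 and Pfkfb3 differed by 0.10 ± 0.11 and 0.13 ± 0.10 and were not called. Slc2a3, the transporter GLUT3, was at most 0.524 CPM in any library and was not called here.

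In the triose steps 4 of 9 genes were called higher in the edgeR test, where 30.1% of all genes were, and none lower, where 25.8% were. An unadjusted p under 0.05 was found for 4 of the 9, where 59.8% of all genes had one. Eno2, the neuronal enolase, rose by 1.05 ± 0.16 (edgeR FDR = 6.7e-06), Tpi1, triosephosphate isomerase, by 0.75 ± 0.16 (edgeR FDR = 0.00054), Pgk1 by 0.60 ± 0.12 (edgeR FDR = 0.00025) and Pgam1, phosphoglycerate mutase, by 0.52 ± 0.09 (edgeR FDR = 3.7e-05). Eno2 and Tpi1 lie on chromosome 6, where the 897 genes tested had a median of 0.22. That chromosome also carries Gapdh, Hk2, Ldhb, Pdk4 and Slc2a3. Gapdh, Pkm, Eno1 and Aldoa were not called. Gapdh was at 1320.4 ± 15.9 and 1329 ± 96.6 CPM, pyruvate kinase Pkm at 1798 ± 74.8 and 1920.4 ± 93.3 CPM, Eno1 at 639 ± 12.9 and 704 ± 50.9 CPM, and aldolase Aldoa at 1025 ± 74.5 and 866 ± 86.3 CPM in WT and Lkb1-/- MEFs. Aldoc, the brain aldolase, was at 0.959 ± 0.345 and 0.885 ± 0.188 CPM. Eno1 shares sequence with processed copies and Gapdh with many, and reads that map to several places were not counted, so these levels are uncertain to that extent.

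The alpha subunits of HIF moved in opposite directions. Hif1a rose from 409 ± 6.80 to 720.0 ± 97.9 CPM (0.81 ± 0.19, edgeR FDR = 0.0012). Epas1, which encodes HIF-2α, fell from 20.4, 30.0 and 31.8 CPM in WT to 5.82, 5.52 and 6.95 CPM in Lkb1-/- libraries (-2.17 ± 0.27, edgeR FDR = 6e-07), with no overlap. The prolyl hydroxylase genes Egln1 (0.08 ± 0.19) and Egln3 (0.35 ± 0.23) were not called. Ankrd37 was at 0.670, 0.921 and 1.30 CPM in WT and 3.10, 2.71 and 2.26 CPM in Lkb1-/- libraries (1.49 ± 0.28, edgeR FDR = 0.00013). Ankrd37 lies over Ufsp2 and Lrp2bp on the other strand, and 45.9% of its stranded reads in untreated WT and 16.7% in Lkb1-/- MEFs came from that strand. Ndrg1, a growth arrest and stress gene, rose by 1.19 ± 0.14 (edgeR FDR = 3.1e-07). Bnip3 was at 27.6, 59.7 and 64.0 CPM in WT and 72.6, 106 and 102 CPM in Lkb1-/- libraries (0.89 ± 0.30, edgeR FDR = 0.016). WT replicate 1 was lower than the other WT libraries here too, and the call was lost without it (0.60, edgeR FDR = 0.1) and without Lkb1-/- replicate 2 (0.80, edgeR FDR = 0.057) or 3 (0.77, edgeR FDR = 0.061). Car9, the carbonic anhydrase that is among the most used markers of hypoxia, had at most 9 counts in a library and was at 0.132 ± 0.106 CPM in WT and 0.0772 ± 0.0476 CPM in Lkb1-/- MEFs. Ppargc1a, the coactivator PGC-1α of mitochondrial genes and a target of CREB and CRTC2 in liver, had 2 counts over the 3 untreated WT libraries and was at 3.40, 2.16 and 2.93 CPM in Lkb1-/- libraries, a ratio of 179 (95% counting interval 49.2 to 1485, edgeR FDR = 6.9e-10).

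**Figure D2:**
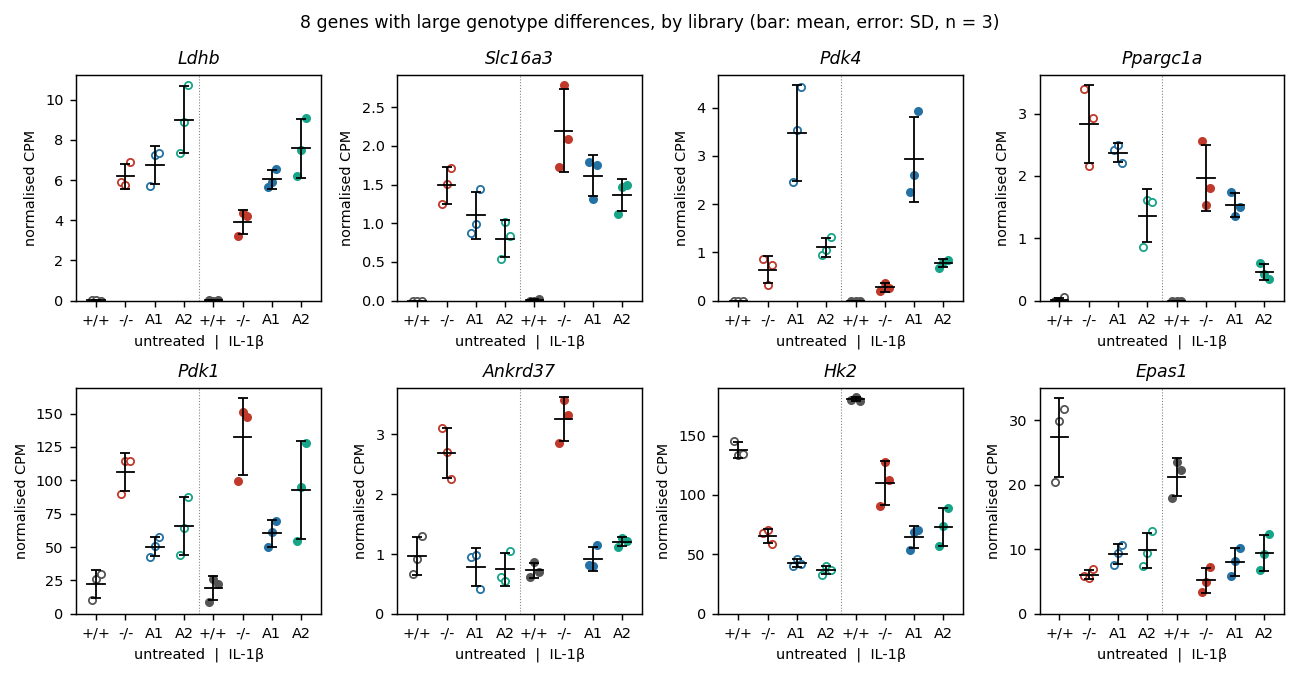
Normalized CPM of 8 genes is plotted by library, with untreated groups on the left (open points) and IL-1β on the right (filled points), the mean as a bar and the SD as the error (n = 3). Ldhb, Slc16a3, Pdk4 and Ppargc1a lie at or near 0 in both WT groups, and Ankrd37 is higher in both Lkb1-/- groups than in WT, A1 or A2.

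In the cells given IL-1β, Lkb1-/- MEFs had 22 of the 36 genes higher than WT, where 30.2% of all genes were called higher, and 4 lower, where 27.1% were called lower. These libraries are not those of the untreated comparison, and 18 genes were called higher under both treatments, where 26.6% of all genes were, and 4 lower, where 23.3% of all genes were. Slc2a1, lower in untreated Lkb1-/- MEFs, was at 293 ± 25.3 CPM in WT and 261 ± 44.3 CPM in Lkb1-/- MEFs given IL-1β (-0.17 ± 0.14, edgeR FDR = 0.34) and was not called. Ankrd37 was at 0.617, 0.864 and 0.698 CPM in WT and 2.85, 3.57 and 3.33 CPM in Lkb1-/- libraries (2.16 ± 0.29, edgeR FDR = 1.9e-06). Pdk1 differed by 2.79 ± 0.38 (edgeR FDR = 2.1e-06), Bnip3 by 1.66 ± 0.31 (edgeR FDR = 9.4e-05) and Epas1 by -2.03 ± 0.27 (edgeR FDR = 1.6e-06). Ppargc1a, with no count in WT libraries given IL-1β, was at least 26.6-fold higher in Lkb1-/- MEFs, and Pdk4, likewise at 0 in WT, was at least 3.74-fold higher. Ldhb had a ratio of 241 (95% counting interval 66.3 to 1993) and Slc16a3 one of 272 (48.4 to 10773). Calls of Egln1, Egln3, Pfkl and Slc2a3, which were made with IL-1β and not in untreated cells, depended on single libraries. Without WT replicate 1 their edgeR FDR was 0.062, 0.072, 0.13 and 0.08, and each was also lost without Lkb1-/- replicate 3. Slc2a3 had 3 counts over the WT libraries, and its ratio was 4.64 (95% counting interval 1.31 to 25.0). Whether the difference between Lkb1-/- and WT MEFs itself changed with IL-1β is given with the responses to IL-1β below.

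The effect of losing CRTC2 on top of LKB1 was read from each clone against Lkb1-/- MEFs. The comparisons of A1 and A2 share the same Lkb1-/- libraries, so their values are set side by side and are not independent of each other. In untreated cells, A1 had 15 of the 36 genes lower, where 16.4% of all genes tested were called lower, and 1 higher, where 18.9% were called higher. A2 had 17 lower, where 15.1% of all genes were called lower, and 3 higher, where 17.1% were called higher. With IL-1β, A1 had 18 lower, where 17.3% of all genes were lower, and 3 higher, where 19.4% were higher, and A2 had 16 lower, where 15.8% of all genes were lower, and 7 higher, where 17.1% were higher. The counts of higher genes depended on single libraries. In untreated A2 they were 5 without A2 replicate 1 or Lkb1-/- replicate 3, with IL-1β they were 1 in A1 without Lkb1-/- replicate 1, and 4 in A2 without Lkb1-/- replicate 1 or 2 or A2 replicate 3. With a term for the replicate number, 20 genes were lower and 4 higher in untreated A1, and 22 and 6 in untreated A2. With IL-1β that fit gave 19 lower and 5 higher in A1 and 22 and 7 in A2. Its shares of all genes called were not counted. The median log2 fold change of the 36 genes lay between -0.38 and -0.31 in these 4 comparisons and that of all genes between 0.01 and 0.02.

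Genes from glucose uptake to lactate were among the lower ones. Slc2a1 was at 157, 186 and 172 CPM in Lkb1-/- libraries, 98.2, 109.5 and 98.6 CPM in A1 and 92.3, 110.3 and 118 CPM in A2, with no overlap (-0.75 ± 0.15 and -0.68 ± 0.14, edgeR FDR = 0.00037 and 0.001). Hk2 was at 39.9, 45.9 and 42.3 CPM in A1 and 33.1, 40.1 and 36.96 CPM in A2, below each Lkb1-/- library, which were already below WT (-0.63 ± 0.14 and -0.84 ± 0.14, edgeR FDR = 0.0011 and 7.8e-05). Pgk1 was at 196, 221 and 238 CPM in Lkb1-/-, 137, 147 and 156 CPM in A1 and 112, 121 and 137 CPM in A2 libraries (-0.57 ± 0.12 and -0.82 ± 0.12, edgeR FDR = 0.00088 and 2.8e-05). The level in WT was 144 ± 3.08 CPM. Pgam1 differed from Lkb1-/- by -0.48 ± 0.09 in A1 and -0.90 ± 0.09 in A2, Ldha by -0.55 ± 0.11 and -0.62 ± 0.11, and Gapdh by -0.44 ± 0.12 and -0.52 ± 0.12, with edgeR FDR between 2.2e-07 and 0.0063. Eno1 (-0.35 ± 0.11 and -0.70 ± 0.11) and Gpi1 (-0.37 ± 0.11 and -0.39 ± 0.11) were lower as well, with edgeR FDR of 0.013 to 0.016 in A1 that rose to between 0.057 and 0.076 without A1 replicate 1, without A1 replicate 2 (Gpi1) or without Lkb1-/- replicate 2 (Eno1). Pkm was called lower in A2 (-0.40 ± 0.10, edgeR FDR = 0.0034) and was 0.02 ± 0.10 in A1, and Aldoa was called lower in A2 (-0.59 ± 0.15, edgeR FDR = 0.0049) and was -0.39 ± 0.15 in A1. With IL-1β Aldoa was called lower in both clones, and each of these calls was lost in 5 alternatives. The difference between the clones themselves was not tested.

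**Figure D3:**
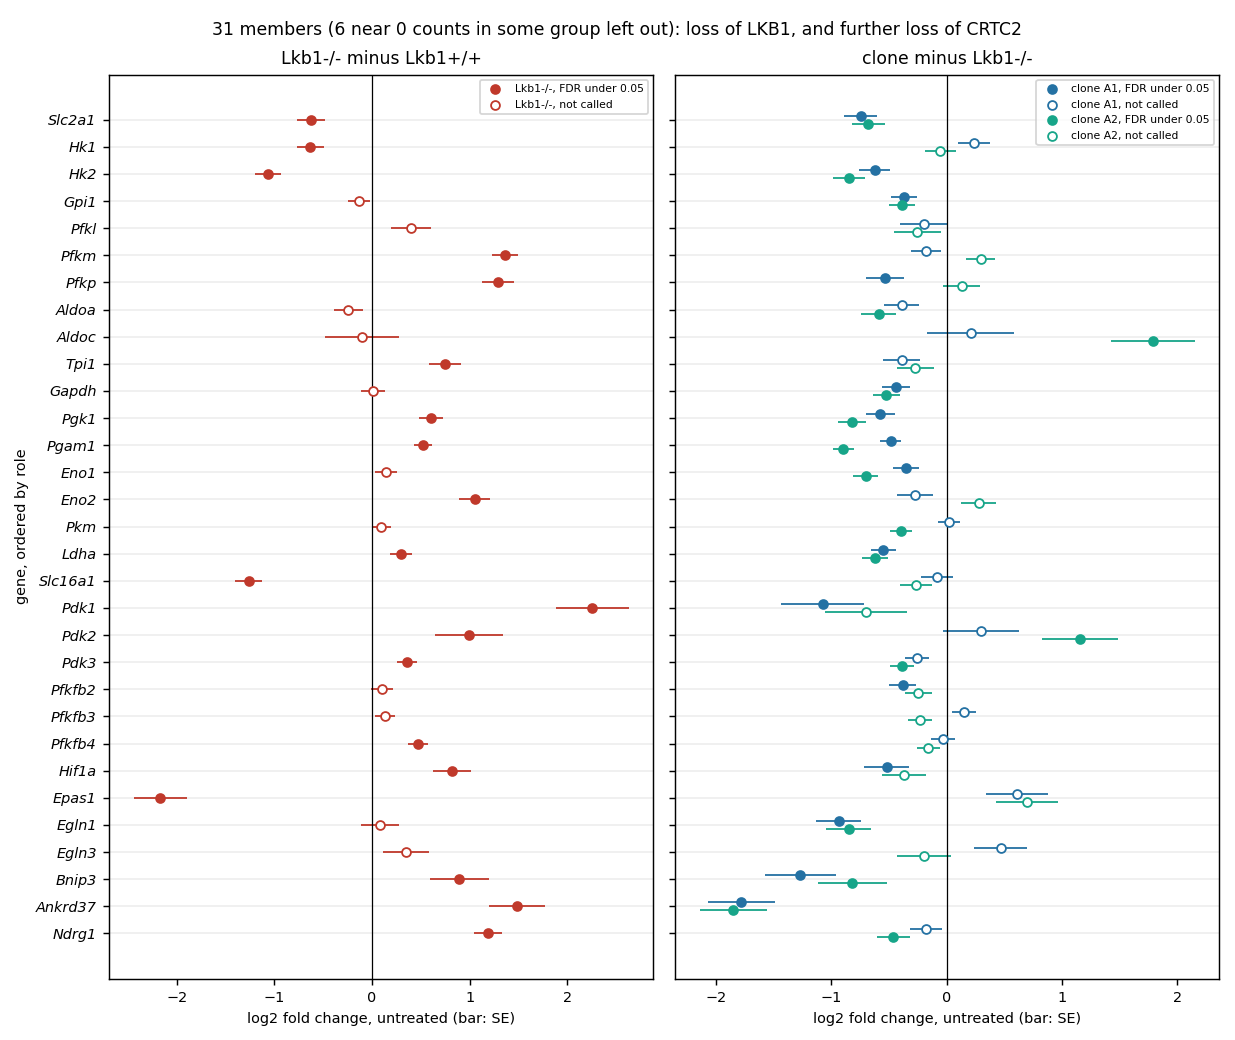
Log2 fold changes (points) with their SE (bars) in untreated cells are plotted for 31 of the genes, without the 6 that are near 0 counts in some group. The left panel compares Lkb1-/- with WT and the right panel each clone with Lkb1-/-, and filled points have an FDR under 0.05. Ankrd37 lies at 1.49 ± 0.28 on the left and at -1.78 ± 0.29 (A1) and -1.85 ± 0.29 (A2) on the right, and the panels share the Lkb1-/- libraries.

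Ankrd37 and Bnip3, HIF targets outside metabolism, were lower in both untreated clones too. Ankrd37 was at 3.10, 2.71 and 2.26 CPM in untreated Lkb1-/-, 0.951, 0.984 and 0.414 CPM in A1 and 0.625, 0.556 and 1.06 CPM in A2 libraries, with no overlap (-1.78 ± 0.29 and -1.85 ± 0.29, edgeR FDR = 5.8e-05 and 5e-05). Under IL-1β it differed by -1.82 ± 0.29 in A1 and -1.43 ± 0.28 in A2. Bnip3 was at 35.8, 39.0 and 41.7 CPM in A1 (-1.27 ± 0.31, edgeR FDR = 0.0026) and 41.0, 48.8 and 69.5 CPM in A2 (-0.82 ± 0.30, edgeR FDR = 0.044), and its call in A2 was lost without A2 replicate 1 or 2, without Lkb1-/- replicate 2 or 3, and with unstranded counts (log2 fold change -0.80 to -0.65, edgeR FDR 0.057 to 0.14). Ndrg1 differed by -0.18 ± 0.14 in untreated A1, which was not called, and by -0.46 ± 0.14 in untreated A2 (edgeR FDR = 0.014, and 0.071 and 0.061 without A2 replicate 1 or Lkb1-/- replicate 2). With IL-1β it was lower in A2 (-0.55 ± 0.14, edgeR FDR = 0.0039) and in A1 (-0.39 ± 0.14, edgeR FDR = 0.034), where the call was lost without A1 replicate 1 or 2 or Lkb1-/- replicate 2 or 3 (edgeR FDR 0.055 to 0.2). With IL-1β Bnip3 differed by -1.39 ± 0.31 in A1 (edgeR FDR = 0.0011) and -0.64 ± 0.30 in A2, where it was not called. Egln1, the main oxygen-sensing hydroxylase and itself a HIF target, was at 95.1, 110.3 and 117 CPM in Lkb1-/-, 51.9, 55.6 and 60.8 CPM in A1 and 46.0, 63.8 and 68.8 CPM in A2 libraries (-0.94 ± 0.20 and -0.85 ± 0.20, edgeR FDR = 0.00077 and 0.002). Egln3 was 0.47 ± 0.23 and -0.20 ± 0.23 and was not called. Pdk1 was lower in A1 (-1.08 ± 0.36, edgeR FDR = 0.023, between 0.059 and 0.085 without A1 replicate 1 or 2 or Lkb1-/- replicate 2 or 3) and -0.70 ± 0.35 in A2, where it was not called. Hif1a was called lower in A1 (-0.52 ± 0.19, edgeR FDR = 0.041), a call that the loss of any 1 of 5 of the 6 libraries ended (edgeR FDR 0.056 to 0.15). Hif1a was -0.37 ± 0.19 in A2.

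Pdk4 and Ldhb, at or near 0 in WT, were not lower in the clones in any of the 4 comparisons in the edgeR test. Pdk4 was at 0.860, 0.325 and 0.738 CPM in untreated Lkb1-/-, 2.46, 3.53 and 4.43 CPM in A1 and 0.947, 1.04 and 1.32 CPM in A2 libraries. Its log2 fold change in A1 was 2.43 ± 0.33 untreated and 3.37 ± 0.36 under IL-1β (edgeR FDR = 2.1e-05 and 1.8e-06). In A2 it was 0.78 ± 0.34 untreated, which was not called, and 1.46 ± 0.38 under IL-1β (edgeR FDR = 0.0067). Ldhb was at 5.89, 5.75 and 6.90 CPM in Lkb1-/-, 5.68, 7.25 and 7.35 CPM in A1 and 7.37, 8.91 and 10.7 CPM in A2 libraries, and its difference in A2 (0.54 ± 0.18, edgeR FDR = 0.022) was lost without Lkb1-/- replicate 2 (0.49, edgeR FDR = 0.088) or A2 replicate 3 (0.43, edgeR FDR = 0.09). Under IL-1β Ldhb was higher than in Lkb1-/- MEFs by 0.62 ± 0.18 in A1 (edgeR FDR = 0.01, and 0.059 without Lkb1-/- replicate 1) and 0.95 ± 0.18 in A2.

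Ppargc1a took another course. It was at 2.41, 2.50 and 2.21 CPM in untreated A1, which did not differ in the test from Lkb1-/- (-0.25 ± 0.29), and at 0.866, 1.62 and 1.58 CPM in A2 (-1.06 ± 0.29, edgeR FDR = 0.009, and 0.057 and 0.05 without replicate 1 of Lkb1-/- or of A2). Under IL-1β A2 was at 0.596, 0.425 and 0.343 CPM and Lkb1-/- at 2.57, 1.54 and 1.80 CPM (-2.10 ± 0.33, edgeR FDR = 6.7e-05). Slc16a3 was at 0.878, 0.984 and 1.45 CPM in A1 and 0.544, 1.02 and 0.837 CPM in A2 libraries. It differed from Lkb1-/- by -0.43 ± 0.28 in A1 and -0.90 ± 0.28 in A2 (edgeR FDR = 0.02 in A2), and the call in A2 was lost with unstranded counts (-0.09, edgeR FDR = 0.8) and without A2 replicate 1 or Lkb1-/- replicate 2 or 3 (edgeR FDR 0.051 to 0.089). In A2 Aldoc was at 2.36, 3.29 and 3.54 CPM against 0.679, 0.928 and 1.05 CPM in Lkb1-/- libraries (1.79 ± 0.36, edgeR FDR = 0.00067), and Pdk2 was at 4.82, 9.52 and 9.25 CPM against 2.65, 3.94 and 3.98 CPM (1.16 ± 0.33, edgeR FDR = 0.0092). In A1 they were 0.21 ± 0.38 and 0.30 ± 0.33 and were not called. Slc2a3 was higher with IL-1β in A1 (1.23 ± 0.47, edgeR FDR = 0.045) and A2 (2.02 ± 0.44, edgeR FDR = 0.0013), from 0.120, 0.0831 and 0.144 CPM in Lkb1-/- libraries to 0.123, 0.345 and 0.350 and 0.441, 0.489 and 0.490 CPM. Slc2a3 had at most 26 counts in any library, and its levels in A1 and Lkb1-/- overlapped. The A1 call was lost without 5 of the 6 libraries, one at a time (edgeR FDR 0.06 to 0.17). Of the genes not yet named for the clones, Pfkp was lower in A1 (-0.53 ± 0.16 untreated and -0.69 ± 0.16 with IL-1β, the former lost without A1 replicate 2, edgeR FDR = 0.059) and 0.13 ± 0.16 in untreated A2, and Pdk3 was lower in untreated A2 (-0.39 ± 0.10). With IL-1β Pdk3 was called lower in A1 and in A2, and these calls were lost in 6 and 2 alternatives. Pfkfb2 was lower in untreated A1 (-0.38 ± 0.11, edgeR FDR = 0.012), Tpi1 was called lower with IL-1β in A1 (-0.49 ± 0.16), and Pfkm (0.34 ± 0.13) and Epas1 (0.86 ± 0.27) were called higher with IL-1β in A2. These calls were lost without single libraries, which were A1 replicate 2 or Lkb1-/- replicate 3 for Pfkfb2 (edgeR FDR 0.056 to 0.068), A1 replicate 1 or Lkb1-/- replicate 2 or 3 for Tpi1 (0.073 to 0.12), Lkb1-/- replicate 1 or 2 or A2 replicate 2 or 3 for Pfkm (0.062 to 0.24), and Lkb1-/- replicate 1 or 2 or A2 replicate 3 for Epas1 (0.06 to 0.1). Hk1, Pfkl, Eno2, Slc16a1, Pfkfb3, Pfkfb4 and Egln3 were called in none of the 4 comparisons with Lkb1-/- in the edgeR test, with log2 fold changes from -0.36 to 0.47.

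Each clone was also compared with WT, the same WT libraries that served for Lkb1-/- MEFs. Untreated A1 had 14 of the 36 genes higher, where 30.3% of all genes were called higher, and 10 lower, where 25.1% were called lower. Untreated A2 had 14 higher, where 32.7% of all genes were called higher, and 13 lower, where 27.9% were called lower. The medians of the 36 genes were 0.11 in A1 and 0.02 in A2, and those of all genes 0.04 and 0.05. Ankrd37 differed from WT by -0.30 ± 0.30 in A1 and -0.36 ± 0.30 in A2, Bnip3 by -0.38 ± 0.30 and 0.08 ± 0.30, and Pgk1 by 0.03 ± 0.12 and -0.22 ± 0.12, none of which was called. Egln1 was lower than in WT in A1 (-0.85 ± 0.20, edgeR FDR = 0.00086) and A2 (-0.77 ± 0.20, edgeR FDR = 0.0019), and Aldoa, Gapdh and Gpi1, which were not called between Lkb1-/- and WT MEFs, were lower in both clones, with log2 fold changes of -0.83 to -0.43. Pdk4 was at least 48.7-fold higher than in WT in A1 and at least 15.4-fold in A2, and Slc16a3 at least 15.4-fold and 11.2-fold. Ldhb had ratios to WT of 429 (95% counting interval 118 to 3546) in A1 and 567 (157 to 4684) in A2. Epas1 stayed under WT (-1.56 ± 0.26 and -1.47 ± 0.26), as did Slc16a1 (-1.35 ± 0.14 and -1.53 ± 0.14) and Hk2 (-1.69 ± 0.14 and -1.91 ± 0.14), with edgeR FDR of at most 4.9e-05.

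Levels were compared between genes as CPM per kb of exon, with all annotated exons of a gene merged into 1 length. This length can exceed that of the mRNA present, and was 13401 bases for Pfkp, 6675 for Pfkl and 3340 for Pfkm. Ranks and shares between genes therefore depend on the annotation. In untreated WT MEFs Pkm stood highest at 359 CPM per kb, before Aldoa at 352, Gapdh at 319, Ldha at 192 and Tpi1 at 173, while Pdk4 and Slc16a3 were at 0. In untreated Lkb1-/- MEFs Pkm was at 384, Gapdh at 322, Aldoa at 297, Tpi1 at 289.8 and Ldha at 236 CPM per kb. The share of each isozyme in its family, also per kb, differed between the lines as follows, and these shares are a description with no test. Pfkl made up 61.3 ± 2.49% of phosphofructokinase mRNA in untreated WT and 45.1 ± 1.36%, 45.6 ± 0.930% and 36.2 ± 1.27% in Lkb1-/-, A1 and A2 (mean ± SD, n = 3), while Pfkm made up 33.0 ± 2.26% in WT and 55.5 ± 1.10% in A2. The Pfkl share of every untreated WT library was above that of every untreated library without LKB1. Hk2 was 54.5 ± 2.93% of hexokinase mRNA in untreated WT, 46.9 ± 3.21% in Lkb1-/-, 32.7 ± 0.388% in A1 and 34.1 ± 2.80% in A2, and with IL-1β it was 62.9 ± 1.57%, 59.3 ± 1.10%, 44.8 ± 2.61% and 50.5 ± 2.22% in the same order. Pdk1 was 8.98 ± 3.54% of the pyruvate dehydrogenase kinase mRNA in untreated WT and 27.0 ± 1.52% in Lkb1-/- MEFs, with Pdk3 making up most of the rest in both. Egln3 was 15.4 ± 0.787% of the 2 prolyl hydroxylase mRNAs in untreated Lkb1-/-, 32.5 ± 1.39% in A1 and 22.3 ± 1.34% in A2. Eno2 was 3.13 ± 0.414% of enolase mRNA in untreated WT, 5.75 ± 0.756% in Lkb1-/- and 10.7 ± 0.744% in A2. Ldhb, in spite of its fold change, was 1.64 ± 0.148% of lactate dehydrogenase mRNA in Lkb1-/- and 3.58 ± 0.425% in A2, and Epas1 was 6.57 ± 1.30% of the HIF alpha mRNA in WT and 0.893 ± 0.126% in Lkb1-/- MEFs.

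**Figure D4:**
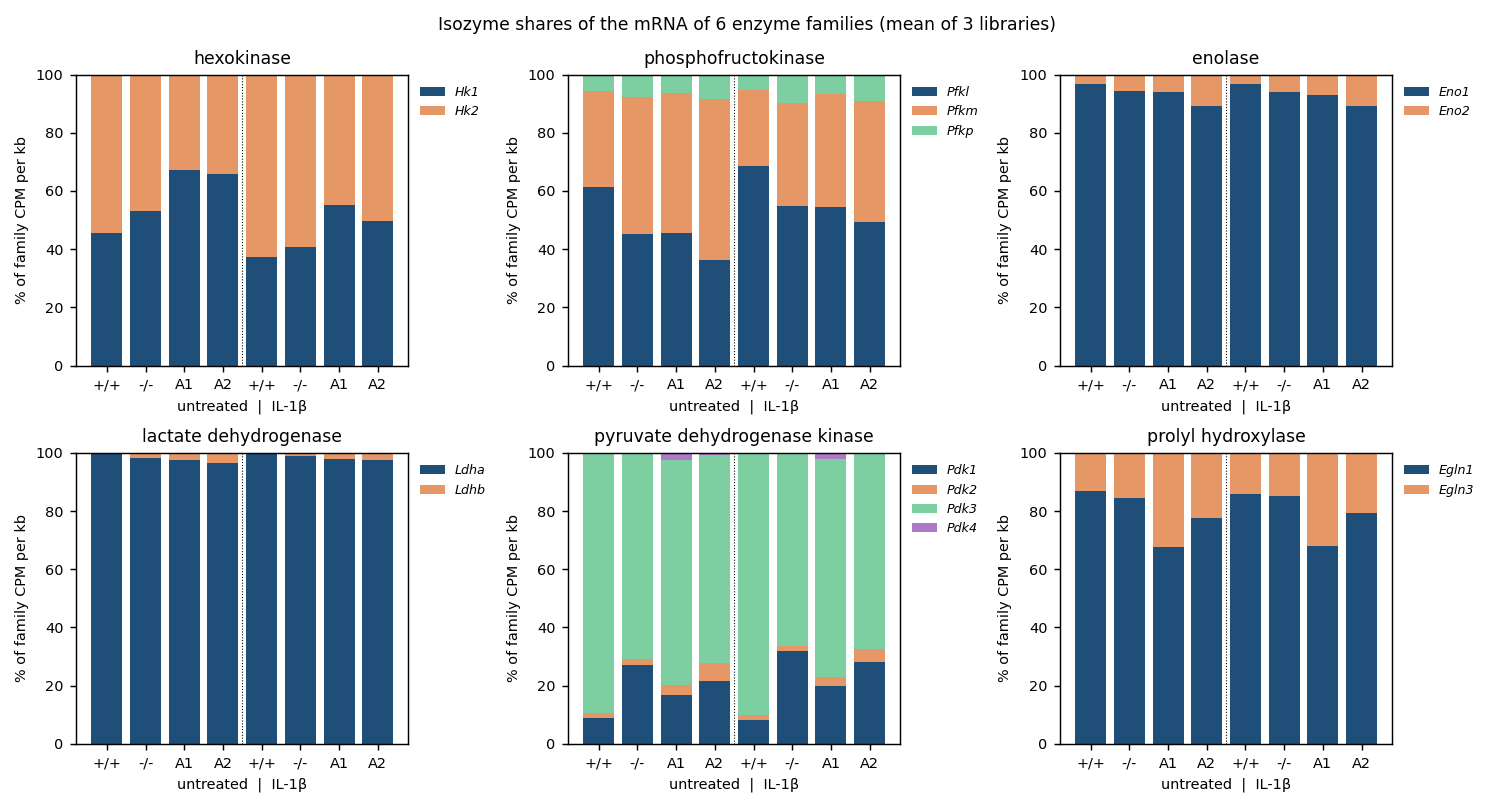
Stacked bars give the mean share (%) of each isozyme in the CPM per kb of its family, for 6 families and 8 groups of 3 libraries. Pfkl is 61.3% in untreated WT and 36.2% in untreated A2, Egln3 is 32.5% in untreated A1, and the Ldhb share is at most 3.58%, in untreated A2.

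Few of these genes were called for IL-1β in the fit used here, which has no term for the replicate number. With such a term the calls were 4 in WT, 12 in Lkb1-/-, 6 in A1 and 18 in A2, in place of 1, 5, 2 and 8. Hk2 and Pfkfb3 were among those in WT. The share of all genes called with such a term was not counted, and the shares below belong to the fit without it. In WT MEFs 1 of the 36 genes was higher, where 1.53% of all genes were called higher, and none was lower in the edgeR test, where 0.731% of all genes were called lower. There 6 genes had an unadjusted p under 0.05, where 11.4% of all genes did, and DESeq2 called 2. In Lkb1-/- MEFs 4 were higher, where 2.65% of all genes were, and 1 was lower, where 2.09% were. In A1 2 were higher, where 1.2% of all genes were, and none was lower, where 0.788% were. An unadjusted p under 0.05 was found in A1 for 6 genes, where 10.7% of all genes had one, and DESeq2 called 2. In A2 6 were higher, where 2.81% of all genes were, and 2 were lower, where 2.86% were.

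Hk2 was at 68.3, 70.2 and 59.2 CPM in untreated and 90.5, 128 and 112 CPM in IL-1β-treated Lkb1-/- libraries (0.74 ± 0.14, edgeR FDR = 0.0015). It rose in A2 from 33.1, 40.1 and 36.96 to 56.7, 73.8 and 89.1 CPM (1.00 ± 0.14, edgeR FDR = 6.8e-05). In A1 it rose by 0.59 ± 0.14 (edgeR FDR = 0.024), and in WT it was 0.39 ± 0.13 (edgeR FDR = 0.19). Pfkfb3, the inducible isoform that makes fructose 2,6-bisphosphate, rose by 0.48 ± 0.10 in Lkb1-/-, 0.43 ± 0.10 in A1 and 0.70 ± 0.10 in A2 MEFs (edgeR FDR = 0.0057, 0.031 and 0.00014), and in WT it was 0.38 ± 0.10 (edgeR FDR = 0.055). Its levels were 23.1, 23.96 and 18.5 CPM in untreated and 35.2, 38.3 and 32.8 CPM in treated A2 libraries, 28.6, 25.4 and 22.9 CPM against 34.3, 35.7 and 37.4 CPM in Lkb1-/-, and 29.4, 31.04 and 24.8 CPM against 36.1, 38.1 and 40.3 CPM in A1. All 3 libraries with IL-1β were above the 3 without it for Hk2 and Pfkfb3 in each genotype. The calls in A1 were lost without any 1 of 5 of its 6 libraries for Hk2 and of 4 for Pfkfb3, with edgeR FDR up to 0.2, and that of Pfkfb3 in Lkb1-/- without untreated replicate 3 (0.40, edgeR FDR = 0.064).

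Ndrg1 rose from 45.7, 62.9 and 63.0 to 75.1, 91.8 and 82.9 CPM in WT (0.54 ± 0.14, edgeR FDR = 0.043), a call that was lost without 5 of the 6 WT libraries, one at a time (edgeR FDR 0.05 to 0.2). It rose by 0.63 ± 0.14 in Lkb1-/- (edgeR FDR = 0.0073, and 0.065 without Lkb1-/- IL-1β replicate 2) and 0.54 ± 0.14 in A2 (edgeR FDR = 0.021), and was 0.43 ± 0.14 in A1. Slc2a1 rose from 157, 186 and 172 to 213, 299.8 and 271 CPM in Lkb1-/- (0.61 ± 0.14, edgeR FDR = 0.014, and 0.1 without Lkb1-/- IL-1β replicate 2) and from 92.3, 110.3 and 118 to 124, 165 and 201 CPM in A2 (0.61 ± 0.14, edgeR FDR = 0.012), and was 0.15 ± 0.14 in WT. In A2 Slc16a1 rose from 114, 98.0 and 106 to 121, 159.5 and 234 CPM (0.70 ± 0.14, edgeR FDR = 0.0031), with replicate 3 well above the others, and Pgam1 from 28.4, 25.6 and 28.3 to 29.0, 34.7 and 39.0 CPM (0.32 ± 0.09, edgeR FDR = 0.04, and 0.054 to 0.13 without any 1 of A2 replicates 2 and 3 of either treatment).

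Ldhb fell from 5.89, 5.75 and 6.90 to 3.24, 4.34 and 4.198 CPM in Lkb1-/- MEFs (-0.65 ± 0.18, edgeR FDR = 0.039), with no overlap, and lost its call without any 1 of the 6 libraries (edgeR FDR 0.056 to 0.2). Ppargc1a fell in A2 from 0.866, 1.62 and 1.58 to 0.596, 0.425 and 0.343 CPM (-1.56 ± 0.33, edgeR FDR = 0.0061), and was -0.52 ± 0.29 in Lkb1-/- and -0.63 ± 0.29 in A1. Pfkfb2, the heart isoform, fell in A2 from 7.56, 7.76 and 9.40 to 6.42, 5.52 and 5.09 CPM (-0.54 ± 0.12, edgeR FDR = 0.0061, and 0.065 and 0.068 without replicate 3 of either treatment). With only the A2 libraries in the fit, the calls in A2 were 2 and not 8. Of the genes not called, Hif1a was between 0.19 and 0.32 and Epas1 between -0.36 and -0.06 over the 4 genotypes.

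**Figure D5:**
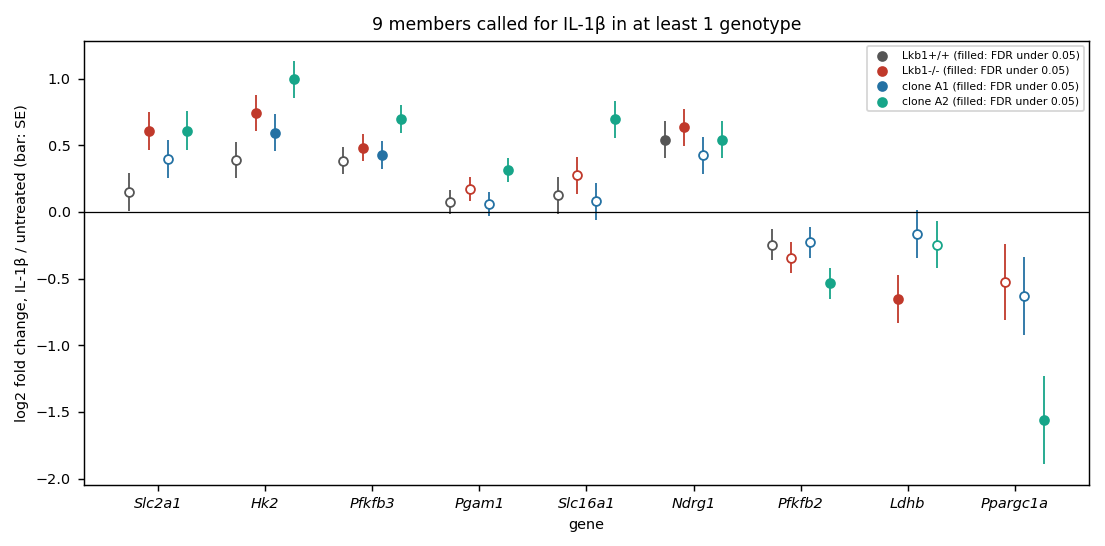
Log2 fold changes of IL-1β against untreated (points) with their SE (bars) are plotted for the 9 genes called in at least 1 genotype, and filled points have an FDR under 0.05. Hk2, Pfkfb3, Ndrg1 and Slc2a1 lie above 0 in all 4 genotypes and Pfkfb2 below it. Ldhb and Ppargc1a are left out for WT, where they are near 0.

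No gene of the 36 had a response to IL-1β that differed between genotypes in the edgeR test. Over all genes 0.245% were called for the difference of Lkb1-/- and WT responses, 0.0285% for that of A1 and Lkb1-/-, and 0% for that of A2 and Lkb1-/-. Of the 36 genes 2, 0 and 2 had an unadjusted p under 0.05, where 5.62%, 2.47% and 2.21% of all genes did. DESeq2 called none in any of the 3. The genes with the unadjusted p were Slc2a1 (0.46 ± 0.20, edgeR FDR = 0.83) and Pfkfb4 (-0.37 ± 0.14, edgeR FDR = 0.7) between Lkb1-/- and WT, and Slc16a1 (0.42 ± 0.20, edgeR FDR = 1) and Ppargc1a (-1.04 ± 0.44, edgeR FDR = 1) between A2 and Lkb1-/-. Differences of the responses of A1 or A2 and WT, and of A1 and A2, were not tested.

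Other genes of the same pathways were counted from 2 lists. Of 33 further genes of glycolysis and pyruvate 22 were tested, and 8 were higher and 10 lower in untreated Lkb1-/- than in WT MEFs, beside 30.1% and 25.8% of all genes, and the median of the 22 was -0.16 on the log2 scale. Slc2a10 and Slc16a7, a glucose transporter and the pyruvate transporter MCT2, had no count in untreated WT and were at least 127-fold and 25.0-fold higher in Lkb1-/- MEFs, Slc2a8 differed by 1.29 and the aldose mutarotase Galm by 1.13. Eno3, the muscle enolase, differed by -1.78, Tigar, a fructose bisphosphatase induced by p53, by -1.11, Mpc2, a subunit of the mitochondrial pyruvate carrier, by -0.98 and Pgm2 by -0.72. Against Lkb1-/-, 4 of the 22 were higher and 7 lower in untreated A1, beside 18.9% and 16.4% of all genes, and 5 were higher and 7 lower in untreated A2, beside 17.1% and 15.1%.

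Of 39 further genes of the HIF pathway 38 were tested, and 22 were higher and 4 lower in untreated Lkb1-/- than in WT MEFs, beside 30.1% and 25.8% of all genes, with a median of 0.53. Igfbp3, which had no count in untreated WT, was at least 72.2-fold higher, Arnt2, a partner of the alpha subunits, differed by 4.31, the collagen lysyl hydroxylase Plod2 by 2.25 and the secreted lipase inhibitor Angptl4 by 2.02. The glycoprotein hormone Stc2 differed by -5.62, Ero1l by -0.53 and Wsb1 by -0.48. Against Lkb1-/-, this list had 5 higher and 13 lower genes in untreated A1, beside 18.9% and 16.4% of all genes, and 3 higher and 10 lower in untreated A2, beside 17.1% and 15.1%. With IL-1β it had 1 higher gene in WT, 8 in Lkb1-/-, 2 in A1 and 8 in A2, beside 1.53%, 2.65%, 1.2% and 2.81% of all genes.

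Libraries numbered replicate 1 stood apart for many of these genes. In 16 of the 37 genes replicate 1 had the lowest CPM of its group in all 8 groups, which was so for 11.2% of 17496 genes with a symbol of their own. The genes were among others Slc2a1, Pdk1, Hif1a, Egln1, Bnip3 and Ndrg1, so that replicate 1 lay on the side of lower levels in the WT, Lkb1-/- and clone groups alike. The share of pairs on no gene was 29.9 to 34.4% in the 8 replicate-1 libraries, the highest of its group in each, and 26.7 to 30.04% in the other 16, and its part in these levels was not tested. Labels give no batch for these numbers, and the results were recomputed without those libraries and with the replicate number as a term. Without them, 26 genes were called between untreated Lkb1-/- and WT MEFs in place of 24, and 19 in place of 8 for IL-1β in A2. The share of all genes called without them was not counted.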

How the data were processed

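RNA was sequenced by the study's authors as paired reads. The labels name a SMARTER mRNA-Seq library kit and the study's methods a KAPA HyperPrep kit with rRNA depletion, and which was used is not resolved here. Per the labels and the study's methods, reads were trimmed with Trim Galore 0.6.0 and aligned to mouse GRCm38 with STAR 2.7.8a, and the deposited files hold raw counts per gene, unstranded and for each strand. Reverse-strand counts were used, since 95.5 to 96.0% of stranded reads on genes fell on that strand. Reads that map to several places were not counted, and lines that name no gene were left out of library sizes, 26.7 to 34.4% of pairs being on no gene. Of 55471 gene identifiers 55230 were given a symbol from GENCODE M21. Aldoa is listed at 2 loci, and the protein-coding gene was used.

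Counts of all 24 libraries were fitted together in edgeR 4.0.16 (R 4.3.3), with 1 term per group, genes kept by filterByExpr (minimum count 10, total 15), TMM scaling and the quasi-likelihood test. TMM factors were between 0.922 and 1.09. P-values were adjusted by Benjamini-Hochberg over all 17522 genes tested, with calls at an FDR under 0.05. Fold changes are on the log2 scale with their standard error. A fold against a group with no count uses 3 counts per library as a lower bound, and intervals cover counting error only. The labels do not say that replicates were separate cultures, so their spread may be technical. Promoter windows are from RefSeq, GRCm38.p6, and those of Ndrg1, Slc2a3 and Epas1 were not analysed here.

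The members and gene lists were chosen with earlier results of these data known. Values by library are given for the called genes with the largest fold changes, all of those called for IL-1β and those near 0, and up to 4 genes a direction are named from each further list, of which 1 is not reported here. Alternatives were DESeq2 1.42.0, other scalings, filters, strand and samples, a replicate block and leaving out each library. Leaving out all 8 libraries numbered replicate 1 was chosen after seeing the data.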

Additional observations from a re-analysis of the deposited data

How the results depend on the processing

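All alternatives kept the direction of every call of a gene in the 15 comparisons, and of 197 calls 140 were kept in every alternative that gave a value and 57 were lost in at least 1. In the comparisons between genotypes, counts of called genes in both directions together moved by at most 1.5 times under each alternative, the most for untreated A1 against Lkb1-/-, from 16 to 24 with the replicate block, with only its own groups in the fit or without the replicate-1 libraries, each with 4 higher in place of 1. The higher genes alone moved more, from 3 to 6 in untreated A2 with the replicate block or without the replicate-1 libraries. With IL-1β they moved from 3 to 6 in A1 without those libraries. With at least 10 counts in every library they went from 1 to 0 in untreated A1, and with IL-1β from 3 to 0 in A1 and 7 to 4 in A2. That filter takes Pdk4, Slc2a3 and Ldhb, at or near 0 counts in WT, out of the test. With no filter on low counts untreated A1 had 4 higher. Leaving out 1 library at a time gave 21 to 24 calls for Lkb1-/- against WT untreated and 21 to 27 with IL-1β, 11 to 17 and 15 to 20 for A1 against Lkb1-/-, 16 to 20 and 16 to 23 for A2 against Lkb1-/-, 21 to 23 for A1 against WT and 25 to 27 for A2 against WT. Counts for IL-1β depended on the setting. In WT, with 1 call, there were 0 with DESeq2 size factors or unstranded counts, 2 with upper quartile scaling or DESeq2, 4 with no filter on low counts, 3 without the replicate-1 libraries and 0 to 1 leaving out 1 library. In Lkb1-/-, with 5, there were 14 with no filter, 11 without the replicate-1 libraries and 2 to 5 leaving out 1 library. In A1, with 2, there were 8 with no filter, 6 with only its own groups in the fit, 5 without the replicate-1 libraries and 0 to 2 leaving out 1 library. In A2, with 8, there were 17 with no filter, 2 with only its own groups, 19 without the replicate-1 libraries and 6 to 12 leaving out 1 library. For the difference of Lkb1-/- and WT responses, with 0, there were 4 with no filter and 1 without the replicate-1 libraries. The cause was not tested, and shares of all genes called were not counted for the alternatives. With the replicate block, calls for IL-1β were 4 in WT, 12 in Lkb1-/-, 6 in A1 and 18 in A2, and in WT Hk2 (edgeR FDR = 0.023) and Pfkfb3 (edgeR FDR = 0.0074) were among them. The labels tie nothing to these numbers, so the block stayed an alternative, though the data hint at an effect shared by same-numbered libraries. Deviations of log2 CPM from group means were correlated between same-numbered libraries of different groups. All 84 correlations were positive (0.0355 to 0.589, median 0.222), and 69 were over 0.1. On average 23 of 24 libraries correlated most with the libraries of other groups that had their own number. Upper quartile scaling moved the median of all genes to between 0.12 and 0.14 in the comparisons with WT.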
